A study of Caenorhabditis elegans with 6 samples.

Results

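The 10 genes described here form the core of programmed cell death in the nematode Caenorhabditis elegans and the DNA damage pathway that feeds into it through the worm's p53 protein. They are egl-1, ced-13, ced-9, ced-4, ced-3, ced-1, cep-1, atl-1, atm-1 and chk-1. They were chosen by name, and every single-gene probe set for them was read, that is, each probe set that the platform annotation ties to 1 of these genes and to no other gene. All 10 of the 10 genes were measured this way, out of 17118 genes on the array, by 16 probe sets. One more probe set lists atm-1 together with other genes and is given apart.

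Transcript levels came from Affymetrix arrays hybridised with RNA of whole worms, 3 for cultures treated with albendazole (ABZ) and 3 for cultures that received only dimethyl sulfoxide (DMSO), its solvent. The albendazole cultures held 300 µg/ml of the drug, a benzimidazole anthelmintic that binds β-tubulin, in 1.5% DMSO by volume for 4 h. The DMSO cultures held 1.5% DMSO alone for the same 4 h. Every culture in both groups was strain CB3474, genotype ben-1(e1880)III, grown in liquid at 20 °C to young adulthood for 70 h from the L1 larva. Each sample was a culture of many worms, so its value is an average over animals. The ben-1 gene encodes the β-tubulin whose loss makes worms resistant to benzimidazoles. Because all 6 cultures carry the allele, the comparison asks what the drug does to these transcripts in resistant worms, and the response of worms with an intact ben-1 was not analysed here. In whole-worm RNA, fewer cells of a type and less RNA per cell cannot be told apart.

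In the worm, cells can die when a BH3-only protein, EGL-1 or CED-13, binds CED-9, the worm's Bcl-2 protein. CED-9 then lets go of CED-4, the counterpart of human Apaf-1, and CED-4 activates the caspase CED-3. Neighbouring cells clear the corpse with the help of CED-1, a receptor on their surface. In the adult hermaphrodite, programmed cell death occurs mainly in the germline, where it also takes place without DNA damage. There, DNA damage is sensed by the kinases ATM-1 and ATL-1 and relayed by the kinase CHK-1, and CEP-1, the worm's p53, switches on egl-1 and ced-13.

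One control array has to be introduced before the results. DMSO replicate 1 had a correlation across probe sets of 0.934 to 0.943 with the others, while the other 5 arrays had correlations of 0.988 to 0.996 among themselves. The SD of its log2 values over probe sets was 1.73, against 1.98 to 2.017 on the other 5, so the deposited arrays do not share 1 distribution. The distance of DMSO replicate 1 from the others moved with signal. When the probe sets were sorted by mean signal into 5 equal bins, it lay above the mean of the other 5 arrays by a median of 0.22 on the log2 scale in the dimmest bin and below it in the brightest, with a median difference of -0.59. In the same bins the median log2 fold change, albendazole minus DMSO, was -0.10, -0.13, -0.02, 0.21 and 0.20 from dim to bright. It was -0.03, -0.04, -0.01, 0.02 and 0.00 without DMSO replicate 1. With all arrays, the share of probe sets with a positive log2 fold change was 19.2%, 26.4%, 47.5%, 79.8% and 93.8% in these bins. Log2 fold changes are therefore given with and without this array. Lists of markers of germline, intestine, body wall muscle, neurons and epidermis had mean log2 signals between 9.15 and 11.995 on the 6 arrays, and 5 markers of the somatic gonad and sheath had mean log2 signals of 9.01 to 9.096 with albendazole, against 8.76 to 9.02 with DMSO. The mean log2 signal of 17 germline and oocyte markers was 10.86 to 11.03 on the albendazole arrays, against 10.91 and 11.13 on DMSO replicates 2 and 3 and 10.20 on DMSO replicate 1. Of the 5 somatic gonad and sheath markers, limma called 0 and 3 did not overlap between the groups, lim-7 and ceh-18 higher and fkh-6 lower with albendazole. Over all probe sets limma called 0%, and 7.81% lay wholly higher and 10.1% wholly lower with albendazole. The log2 fold changes of lim-7, ceh-18 and fkh-6 were 0.16, 0.57 and -0.35 (unadjusted p 0.134, 0.0513 and 0.038, adjusted p 0.651 each by limma), and 0.19, 0.34 and -0.23 without DMSO replicate 1. The part these levels play in the results was not tested.

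None of the 10 genes passed the test for a difference between albendazole and DMSO. The smallest adjusted p among their 16 probe sets was 0.651 by limma with Benjamini-Hochberg adjustment over 22548 probe sets, and limma called 0% of all probe sets. At an unadjusted p under 0.05 limma found 0 of the 16, against 1.52% of all probe sets higher and 0.341% lower, 1.86% together. No member probe set had all albendazole values above all DMSO values, a pattern of 7.81% of all probe sets, or all of them below, a pattern of 10.1%. With the brightest single-gene probe set standing for each gene, 6 of the genes had a positive log2 fold change and 4 a negative one, with a median of 0.07, and 53.3% of all probe sets were positive. Over all 17118 genes the median was 0.02. When DMSO replicate 1 was left out, 3 were positive and 7 negative with a median of -0.03, against 43.2% of all probe sets positive and a median of -0.02 over all genes. The sign of the members' median also turned under quantile normalization, at -0.09, and under cyclic loess normalization, at -0.07.

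**Figure D1:**
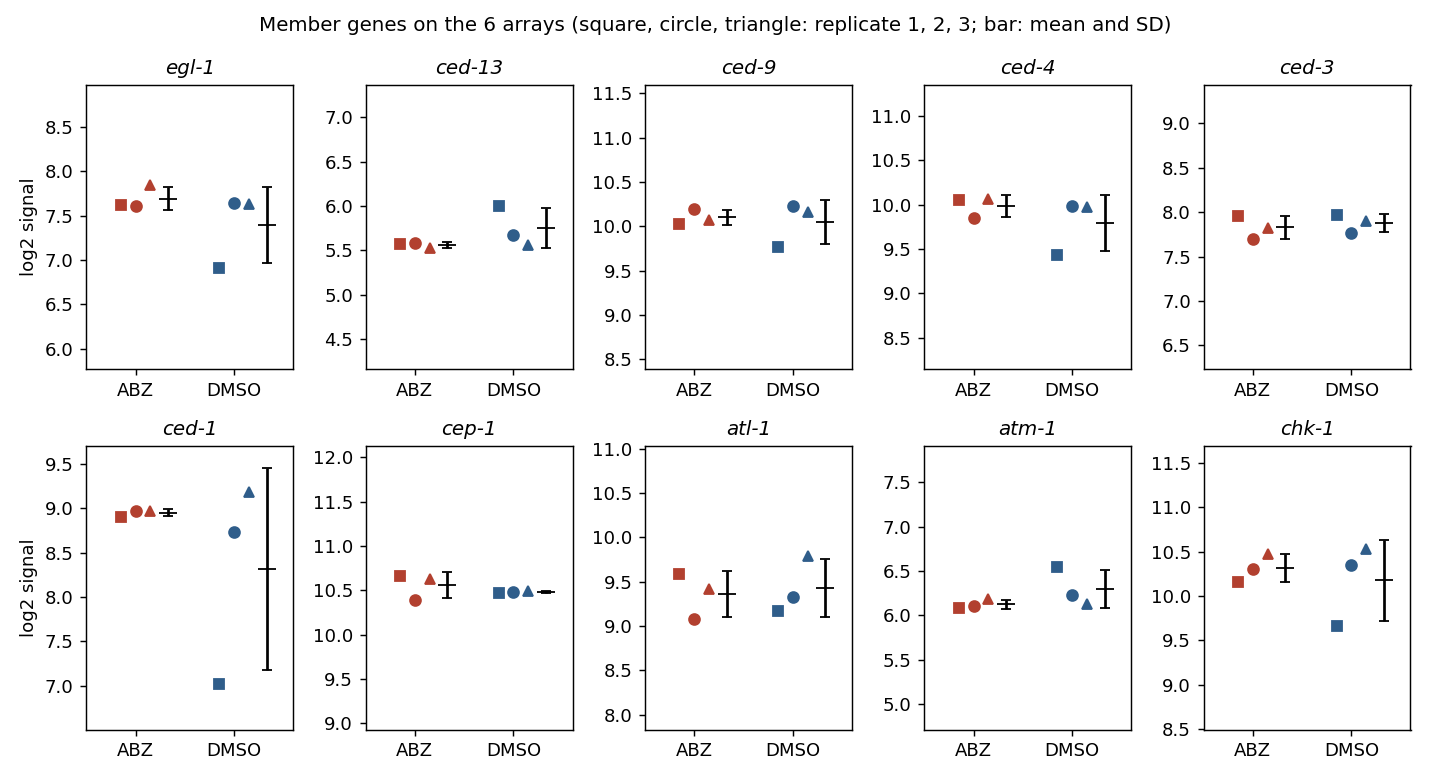
Log2 signal (vertical axis, each panel spanning the same range of log2 units) of the 10 genes on the 3 albendazole (ABZ, red) and 3 DMSO (blue) arrays, with the brightest single-gene probe set for each gene; black bars are mean and SD of each group (n = 3). The groups overlap in every panel, and DMSO replicate 1 (blue square) is the lowest point for 5 genes and the highest for 3.

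The BH3-only genes start the pathway. For egl-1 (NCBI gene 179943) the log2 signal was 7.63, 7.61 and 7.84 with albendazole, against 6.91, 7.65 and 7.63 with DMSO. The 3 albendazole values and DMSO replicates 2 and 3 lay close together, and DMSO replicate 1 alone was low. The mean of egl-1 was 7.69 ± 0.13 with albendazole, against 7.39 ± 0.42 with DMSO (SD, n = 3 each), a 1.23-fold difference with a 95% interval of 0.841 to 1.79-fold and an adjusted p of 0.651. Without DMSO replicate 1 the log2 fold change of egl-1 was 0.05, and the interval narrowed to 0.889 to 1.21-fold (adjusted p 0.888). The upper end of that interval is the largest rise of egl-1 signal that these 5 arrays allow at this confidence.

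The second BH3-only gene, ced-13 (gene 191625), had 5.58, 5.58 and 5.52 with albendazole, against 6.01, 5.68 and 5.57 with DMSO. Here DMSO replicate 1 was the highest of the 6 arrays, the opposite of its place for egl-1. The log2 fold change of ced-13 was -0.19 (95% interval -0.52 to 0.15, adjusted p 0.651), and without DMSO replicate 1 it was -0.06 (-0.22 to 0.10, adjusted p 0.823). The probe set of ced-13 lies in the dimmest bin of the arrays, and the deposited table has no detection calls. Whether this signal is above background could therefore not be read, and the interval bounds a change of signal only.

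The 3 genes that carry the signal from Bcl-2 to the caspase showed no common direction. The log2 signal of ced-9 (gene 3565776), which holds the pathway in check, was 10.03, 10.20 and 10.07 with albendazole, against 9.76, 10.22 and 10.16 with DMSO. Its log2 fold change was 0.05 (95% interval -0.32 to 0.42, adjusted p 0.858) and turned to -0.09 without DMSO replicate 1 (-0.28 to 0.09, adjusted p 0.794). A second probe set for ced-9 was the steadiest of the 16. It read 7.88, 7.88 and 7.95 with albendazole, against 7.93, 7.93 and 7.87 with DMSO. Its log2 fold change was -0.01 with a 95% interval of -0.22 to 0.21, and it was 0.0043 (-0.15 to 0.16) without DMSO replicate 1, which lay among the other arrays there.

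The adaptor gene ced-4 (gene 175643) had 10.05, 9.85 and 10.07 with albendazole, against 9.43, 9.98 and 9.97 with DMSO. DMSO replicate 1 was again the one low value. For ced-4 the log2 fold change was 0.19 (95% interval -0.25 to 0.63, adjusted p 0.651) with all arrays and 0.01 (-0.20 to 0.22, adjusted p 0.979) without that array. It turned negative under quantile (-0.04) and cyclic loess normalization (-0.05).

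The caspase gene ced-3 (gene 178272) gave unlike answers from its 2 probe sets. The brighter one had 7.96, 7.70 and 7.82 with albendazole, against 7.97, 7.77 and 7.90 with DMSO, and all 6 arrays agreed to within 0.27 on the log2 scale. Its log2 fold change was -0.05 (95% interval -0.33 to 0.23, adjusted p 0.820), and it was -0.0035 without DMSO replicate 1 (-0.24 to 0.24, adjusted p 0.995). The second had 7.20, 7.08 and 7.10 with albendazole, against 5.90, 6.81 and 7.10 with DMSO, so that DMSO replicate 1 lay more than 1 log2 unit below every albendazole value. Its log2 fold change of 0.52 (95% interval -0.22 to 1.27, adjusted p 0.651) stood at the 98.9 percentile of the probe sets in its signal bin and had the smallest unadjusted p of the 16 by limma, 0.137. It was 0.17 without DMSO replicate 1 (-0.08 to 0.42, adjusted p 0.775), at the 93.6 percentile. Among all genes, the patterns closest to that second ced-3 probe set over the 6 arrays were those of F16B12.6, unc-84 and npp-1. The mean absolute difference between their log2 deviations and those of ced-3 was 0.028, 0.031 and 0.037, and these genes share the low value on DMSO replicate 1.

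**Figure D2:**
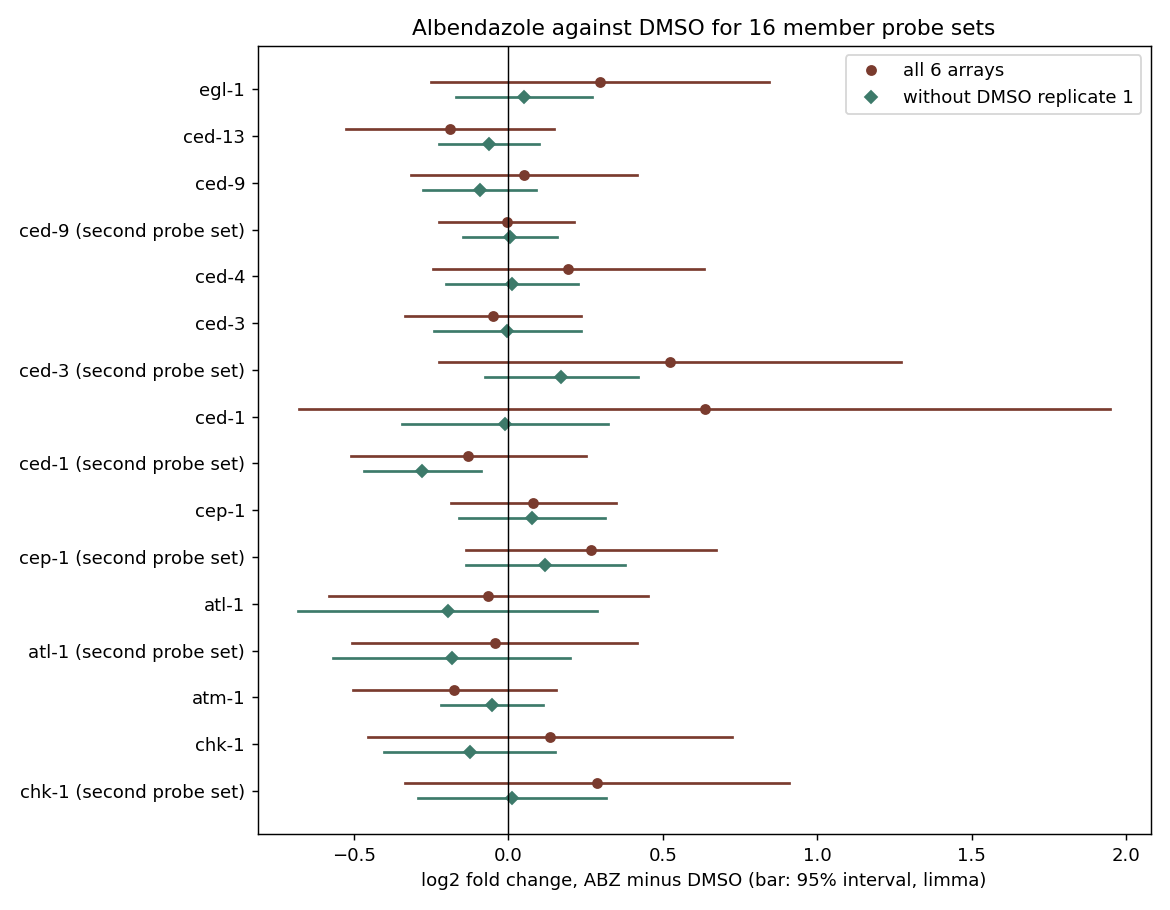
Log2 fold change, albendazole minus DMSO (horizontal axis), for the 16 single-gene probe sets of the members, with 95% intervals from limma, using all 6 arrays (brown circles) and leaving out DMSO replicate 1 (green diamonds). With all arrays every interval spans 0. Without that array the interval is narrower for every probe set, and only the second probe set of ced-1 has an interval wholly below 0 (-0.47 to -0.09).

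The engulfment receptor gene ced-1 (gene 173064) held both the widest spread and the lowest unadjusted p seen without DMSO replicate 1. Its brighter probe set had 8.90, 8.97 and 8.97 with albendazole, against 7.02, 8.74 and 9.18 with DMSO. The 3 albendazole values fell within 0.07 of each other, while the DMSO values covered 2.16 log2 units and lay on both sides of them. The log2 fold change of 0.64 was the largest of the 16 and had an interval of -0.68 to 1.95 (adjusted p 0.651). It was -0.01 without DMSO replicate 1 (-0.34 to 0.32, adjusted p 0.989). On this probe set DMSO replicate 1 lay 1.93 below the other arrays (a difference of -1.93), where the median of its signal bin was -0.58.

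The second ced-1 probe set gave 8.096, 8.002 and 7.929 with albendazole, against 7.839, 8.237 and 8.339 with DMSO. All 3 albendazole values were below DMSO replicates 2 and 3 and above DMSO replicate 1. The log2 fold change was -0.13 with all arrays (adjusted p 0.680) and -0.28 without DMSO replicate 1 (95% interval -0.47 to -0.09), with an unadjusted p of 0.0116 and an adjusted p of 0.775 by limma. It was 1 of 16 member probe sets at an unadjusted p under 0.05 in that comparison, against 5.74% of all probe sets (2.97% higher and 2.77% lower). It was also the 1 of 16 whose albendazole values all lay below the remaining DMSO values, against 15% of all probe sets, and 0 of 16 had them all above, against 10.2%. A share of that size is near the background. Within its signal bin the log2 fold change without that array stood at the 1.6 percentile. This probe set carries the Affymetrix suffix for probes that match more than one transcript. The brighter ced-1 probe set had -0.01 without DMSO replicate 1, and its wider interval of -0.34 to 0.32 also holds -0.28.

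The p53 gene cep-1 (gene 172616) had 10.66, 10.40 and 10.62 with albendazole, against 10.47, 10.48 and 10.49 with DMSO. The DMSO values fell within 0.017 of each other, DMSO replicate 1 included, and inside the range of the albendazole values. For cep-1 the log2 fold change was 0.08 (95% interval -0.19 to 0.35, adjusted p 0.703), and nearly the same without DMSO replicate 1, at 0.08 (-0.16 to 0.31, adjusted p 0.844). It was negative under quantile (-0.14) and cyclic loess normalization (-0.16). The second cep-1 probe set had 9.10, 8.85 and 9.09 with albendazole, against 8.45, 8.97 and 8.82 with DMSO. It gave a log2 fold change of 0.27 (-0.14 to 0.67, adjusted p 0.651), and 0.12 without DMSO replicate 1 (-0.14 to 0.38). In both probe sets ABZ replicate 2 held the lowest of the albendazole values.

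The ATR-type kinase gene atl-1 (gene 179352) varied among replicates of both groups, and its 2 probe sets did so alike. The brighter had 9.59, 9.08 and 9.42 with albendazole, against 9.16, 9.33 and 9.79 with DMSO. The other had 9.45, 9.07 and 9.33 with albendazole, against 9.05, 9.28 and 9.65 with DMSO. On both, ABZ replicate 2 was the lowest albendazole value and DMSO replicate 3 the highest of all. The log2 fold changes were -0.07 (95% interval -0.58 to 0.45, adjusted p 0.871) and -0.04 (-0.51 to 0.42, adjusted p 0.903), and without DMSO replicate 1 they were -0.20 (-0.68 to 0.29) and -0.18 (-0.57 to 0.20). Both turned positive without DMSO replicate 3, at 0.12 each. Both atl-1 probe sets carry Affymetrix suffixes for probes that can match further transcripts, and whether they share probes was not tested.

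The ATM-type kinase gene atm-1 (gene 3565793) had 6.08, 6.11 and 6.18 with albendazole, against 6.54, 6.23 and 6.13 with DMSO. As for ced-13, the probe set lies in the dimmest bin and DMSO replicate 1 held its highest value. For atm-1 the log2 fold change was -0.17 (95% interval -0.50 to 0.15, adjusted p 0.651), and -0.05 without that array (-0.22 to 0.11, adjusted p 0.846). The further probe set that lists atm-1 among 4 genes had a log2 fold change of -0.12, and -0.06 without DMSO replicate 1, and could not be assigned to one of them.

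The checkpoint kinase gene chk-1 (gene 3565921) had 10.16, 10.31 and 10.47 with albendazole, against 9.66, 10.35 and 10.53 with DMSO. Its log2 fold change was 0.13 (95% interval -0.45 to 0.72, adjusted p 0.764) and turned to -0.12 without DMSO replicate 1 (-0.40 to 0.15, adjusted p 0.804). The second chk-1 probe set had 8.36, 8.59 and 8.62 with albendazole, against 7.69, 8.36 and 8.65 with DMSO. It had a log2 fold change of 0.29 (-0.34 to 0.91, adjusted p 0.651), and 0.01 without that array (-0.29 to 0.32, adjusted p 0.983). On both probe sets DMSO replicate 1 was the one value well below the rest, and the other 5 arrays overlapped. The brighter chk-1 probe set carries the Affymetrix suffix for probes that can match further transcripts.

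**Figure D3:**
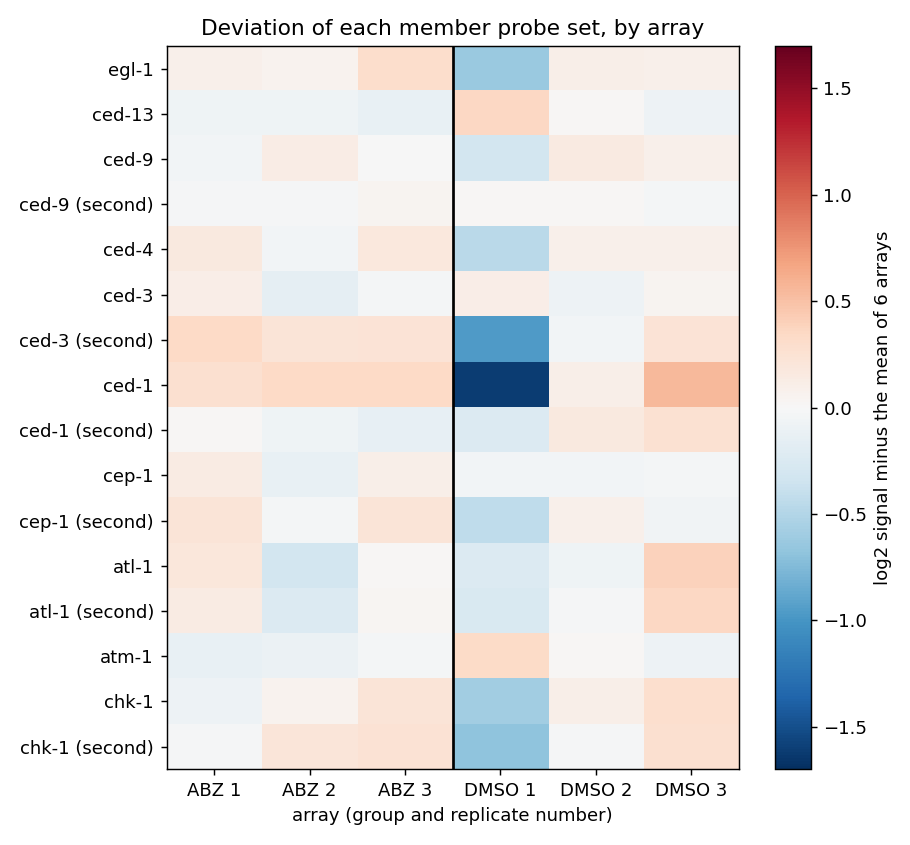
Log2 signal of each member probe set (rows) on each array (columns, albendazole left of the black line and DMSO right of it) minus that probe set's mean over the 6 arrays, on a colour scale from blue (below the mean) to red (above). The darkest cells lie in the column of DMSO replicate 1, at ced-1 and at the second probe set of ced-3, and this column is blue for most probe sets and red for ced-13, atm-1 and, faintly, the brighter ced-3 and second ced-9 probe sets.

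Across the 16 probe sets, DMSO replicate 1 was the lowest of the 6 arrays for 10 and the highest for 3, against 47.1% and 36.7% of all probe sets. The SD of the DMSO group exceeded that of the albendazole group for 13 of the 16, with a median SD of 0.127 for albendazole against 0.285 for DMSO (n = 3 each). Over all probe sets these medians were 0.088 and 0.282. For 8 of the 16 probe sets the lowest albendazole value was that of ABZ replicate 2. Of the 6 genes with 2 probe sets, both had the same sign for 3, cep-1, atl-1 and chk-1. Without DMSO replicate 1 the number was again 3, with ced-1 in place of chk-1.

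The precision of the arrays sets how large a change of these genes could have been missed. With all 6 arrays, the 95% interval of 9 of the 16 member probe sets lay within 1.5-fold either way, against 46.7% of all probe sets, and the widest, that of ced-1, reached 3.86-fold. Without DMSO replicate 1, 15 of 16 lay within 1.5-fold, against 91.5% of all probe sets. The exception was the brighter atl-1 probe set, whose interval reached down to 0.624-fold. A share that high is also the share of the array as a whole. The intervals bound the change of signal, and signal near the background understates a change of the transcript.

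The wider pathway was read from 6 lists of genes fixed by name, which hold 112 measured genes, and limma called none of them (0% of all probe sets called, also 0% without DMSO replicate 1). At an unadjusted p under 0.05 limma found 2 of the 112, akt-2 and rab-7, against 1.86% of all probe sets, and without DMSO replicate 1 it found 3, these and hlh-2, against 5.74%. Neither share is above that of the array. Of 16 measured genes in p53 regulation and germ cell apoptosis, 15 had a positive log2 fold change, with a median of 0.33. For 3 of the 16 the lowest albendazole value exceeded the highest DMSO value, against 7.81% of all probe sets, and 4 of the 16 did so without DMSO replicate 1, against 10.2%. All albendazole values lay below for 0 of the 16 (10.1% of all probe sets), and for 1 without DMSO replicate 1 (15%). With all arrays, the other lists had 1 above and 1 below of 13 in death execution, and 1 and 1 of 29 in engulfment. Transcriptional control had 2 and 0 of 17, the checkpoint 1 and 0 of 14, and repair 0 and 1 of 23. For akt-2, a kinase of insulin signalling, the log2 signal was 8.38 ± 0.10 with albendazole, against 7.61 ± 0.65 with DMSO (SD, n = 3 each), with all albendazole values above all DMSO values, a log2 fold change of 0.77 and an adjusted p of 0.651. It was 0.40 without DMSO replicate 1 (adjusted p 0.775). The gene phg-1 stood at 8.37 ± 0.13 with albendazole, against 8.04 ± 0.25 with DMSO, a log2 fold change of 0.33 with no overlap (adjusted p 0.651), and 0.18 without DMSO replicate 1 (adjusted p 0.775). The one negative gene of the list was tyr-2, at -0.20, and its sign turned to 0.05 without DMSO replicate 1, the highest of its 6 arrays. In the absence of DMSO replicate 1, 10 of the 16 were positive and the median was 0.05.

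Engulfment and corpse degradation, further genes of the corpse clearance in which ced-1 acts, had 25 of 29 positive and a median of 0.27. Log2 fold changes were 0.47 for the Rac GTPase gene ced-10 and 0.30 for the lipid kinase gene vps-34, neither passing, and without DMSO replicate 1 they were 0.11 for ced-10 and 0.16 for vps-34. The small GTPase gene rab-7, which acts in late endosomes and phagosomes, had the lowest log2 fold change of the list. Its log2 signal was 7.72 ± 0.16 with albendazole, against 8.07 ± 0.062 with DMSO (SD, n = 3 each). All its albendazole values lay below all DMSO values, and its log2 fold change of -0.35 (adjusted p 0.651) was -0.38 without DMSO replicate 1 (adjusted p 0.775). The rab-7 probe set carries the Affymetrix suffix for probes that can match further transcripts. The bridging protein gene ttr-52 had -0.34, and -0.08 without DMSO replicate 1. Leaving out DMSO replicate 1 left 14 of the 29 positive and a median of 0.00.

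Death execution and DNA degradation, the nucleases and further caspase genes downstream of or beside ced-3, had 9 of 13 positive and a median of 0.12. Log2 fold changes were 0.34 for the nuclease gene crn-4 and 0.24 for the cyclophilin gene cyn-13, and without DMSO replicate 1 they were 0.11 for crn-4 and 0.07 for cyn-13. The caspase-family genes csp-1 and csp-3 had -0.28 and -0.15, and none of these passed. Without DMSO replicate 1, csp-1 had -0.03 and csp-3 had -0.13. Leaving out that array left 6 of the 13 positive, with a median of -0.01.

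Transcriptional control of cell death, the factors that set where egl-1 and other death genes are on, had 11 of 17 positive and a median of 0.10. The helix-loop-helix gene hlh-2 had 9.22 ± 0.039 with albendazole, against 8.53 ± 0.63 with DMSO (SD, n = 3 each), with no overlap, a log2 fold change of 0.68 and an adjusted p of 0.651. It was 0.33 without DMSO replicate 1 (adjusted p 0.775). Log2 fold changes were 0.41 for ces-2, -0.18 for eor-1 and -0.25 for mcd-1, none passing. In the fit without that array they were 0.17 for ces-2, -0.16 for eor-1 and -0.04 for mcd-1. Without DMSO replicate 1, 10 of the 17 were positive and the median was 0.00.

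DNA damage checkpoint genes, partners of the kinases above, had 12 of 14 positive and a median of 0.18. Log2 fold changes were 0.29 for mrt-2, a subunit of the checkpoint clamp, 0.27 for rpa-1, -0.23 for chk-2 and -0.04 for hpr-9, none passing. The 5 arrays without DMSO replicate 1 gave 0.07 for mrt-2, 0.05 for rpa-1, -0.07 for chk-2 and -0.05 for hpr-9. DNA repair genes had 22 of 23 positive and a median of 0.20, with cku-80 at 0.40, xpa-1 at 0.18 and mre-11 at -0.20, none passing. With that array left out, cku-80 had 0.09, xpa-1 0.06 and mre-11 -0.12. Without DMSO replicate 1, 6 of the 14 checkpoint genes and 7 of the 23 repair genes were positive, and the medians were -0.03 and -0.06. The germline and oocyte markers went the same way, with 15 of 17 positive and a median of 0.17 with all arrays, and 3 of 17 and -0.07 without DMSO replicate 1. Across all genes 52.2% were positive with all arrays and 41.4% without that array. In the 2 brightest signal bins, 79.8% and 93.8% of probe sets were positive with all arrays. The medians there were those given above, 0.21 and 0.20 with all arrays and 0.02 and 0.00 without DMSO replicate 1. Under quantile and cyclic loess normalization the medians turned negative for death execution (-0.0046 and -0.021) and for the checkpoint (-0.035 and -0.051), and those of the other lists stayed positive, between 0.0073 and 0.16.

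**Figure D4:**
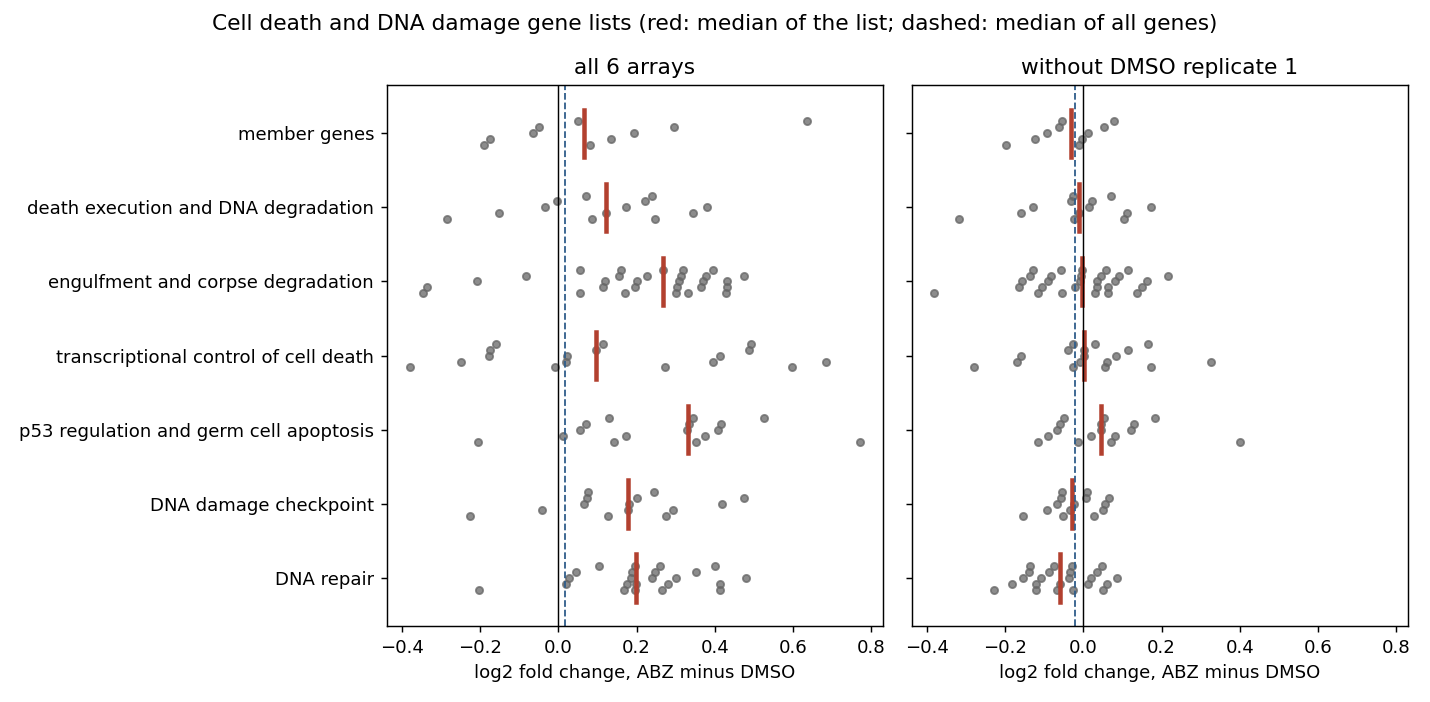
Log2 fold change, albendazole minus DMSO (horizontal axis), of each measured gene (grey points) in the member set and the 6 pathway lists, with all 6 arrays (left panel) and without DMSO replicate 1 (right panel); red bars are list medians and the dashed line is the median of all genes. The medians of the 6 lists lie between 0.10 and 0.33 in the left panel and between -0.06 and 0.05 in the right.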

How the data were processed

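Per the submitters' processing notes, the authors used RMA and limma, whose versions and roles are not given there. The deposited values were taken as log2 signal per probe set, a scale read from their range and not stated. They hold no detection calls, and no raw scans were used here. Of 22625 probe sets, 77 controls were left out. Gene names came from the platform annotation, and updating them through a RefSeq table of WBcel235 changed 0 symbols. No coordinates or sequences are given. Groups follow the sample titles. The groups were compared on all 22548 probe sets in limma (3.58.1, under R 4.3.3) with group as the only term, default eBayes and two-sided p, and Benjamini-Hochberg adjustment ran over the whole table. Fold changes are albendazole over DMSO, and intervals are 95%. The script was tested on simulated data.

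The members, lists, naming rule and alternatives were chosen with earlier results of these data known. Named are all members, and in each pathway list up to 2 genes with the smallest p in each direction. For the member probe set with the smallest p, the 3 genes closest by mean absolute difference are named. The lists were described by counts and medians. hif-1, rad-54, rfs-1 and the marker col-10 had no single-gene probe set. The number of arrays limits the precision. The labels call the samples biological replicates and state no pairing.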

Additional observations from a re-analysis of the deposited data

How the results depend on the processing

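None of the 16 member probe sets passed an adjusted p under 0.05 in any setting run; the smallest adjusted p, 0.109, was that of the second ced-1 probe set with array weights. Over all probe sets 0 were called, except 28 with array weights, where DMSO replicate 1 weighed 0.0428 and DMSO replicate 2 10.4. The 420 probe sets at an unadjusted p under 0.05 became 105 to 1294 with an array left out, 923 with both arrays numbered 1 left out, 4662 with array weights and 259 with the replicate block. The labels state no pairing by number. The deviations of same-numbered arrays correlated at 0.125, 0.264 and 0.066. Differently numbered arrays were not compared, so these values cannot decide whether the numbers pair the samples. The replicate block called 0, as did the fit without it.

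Signs of uncalled log2 fold changes turned as follows, and the cause was not tested. Under quantile and cyclic loess normalization they were -0.18 and -0.19 for ced-9, -0.038 and -0.049 for ced-4, -0.14 and -0.16 for cep-1, and -0.10 and -0.11 for chk-1. With both arrays numbered 1 left out they were -0.058 for ced-9, 0.016 for its second probe set, -0.021 for ced-4 and -0.048 for chk-1. With array weights they were -0.10 for ced-9, -0.017 for ced-4, 0.018 for ced-3 and -0.020 for chk-1. With the arrays shifted to 1 median the second ced-9 probe set had 0.0096. With each array left out in turn the range was -0.092 to 0.14 for ced-9, -0.028 to 0.0059 for its second probe set, -0.12 to 0.016 for ced-3, -0.0098 to 1.07 for ced-1, -0.20 to 0.12 for atl-1, -0.18 to 0.12 for its second probe set and -0.12 to 0.31 for chk-1. The trend and robust settings and the filter on dim probe sets turned 0 signs. That was fixed in advance, since neither alters a log2 fold change. The log2 fold change of egl-1 stayed positive, from 0.05 to 0.42, and that of ced-13 negative, from -0.28 to -0.06, with each array left out. Among the fits that left out a single array, the medians of the 6 pathway lists were lowest without DMSO replicate 1; other settings gave lower medians, such as -0.038 for death execution with array weights, -0.051 for the checkpoint under cyclic loess and -0.084 for repair with both arrays numbered 1 left out.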
